A study of Rattus norvegicus with 16 samples.

Results

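Nr4a1, Nr4a2 and Nr4a3 encode the Nr4a family of orphan nuclear receptors, and their transcripts were followed here in rat retina and pineal gland. Every probe set annotated to 1 of these 3 symbols was taken, so 3 of 4736 named genes are described, by 7 of the 8799 probe sets on the array: 2 for Nr4a1, 2 for Nr4a2 and 3 for Nr4a3. Total RNA was hybridised to 16 Affymetrix arrays, 4 of pineal gland and 12 of retina. Each array is titled with an hour, 12 or 6, counted in circadian time (CT) or Zeitgeber time (ZT). By convention ZT counts from lights on in a light-dark cycle, with hour 12 at lights off, and CT counts the hours of the internal clock without such a cycle; lighting, strain, age and pooling of animals are not described in the labels. The pineal gland has 1 array for each of CT12, CT6, ZT12 and ZT6, and the retina has 3 arrays for each, numbered 1 to 3. Whether numbered arrays came from separate animals is not stated, and p-values therefore measure only how far these samples spread, which may be technical.

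Nr4a receptors lack the usual ligand pocket, so how much receptor a cell holds largely sets how much activity it has. They bind DNA alone at the NGFI-B response element or as dimers, and Nr4a1 and Nr4a2 also pair with retinoid X receptors. All 3 genes behave as immediate early genes in many cells: calcium and cyclic AMP switch them on within minutes, partly through the factor CREB. The retina and the pineal gland both hold photoreceptor-like cells and a clock, and in the pineal gland noradrenaline released at night raises cyclic AMP, which drives melatonin synthesis.

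Nr4a1 lies at chr7:134247153-134268044 in the rat build GRCr8, Nr4a2 at chr3:62098739-62115926 and Nr4a3 at chr5:67157141-67198287. The promoters of Nr4a1 and Nr4a2 are shown for their unlike calls at ZT12 against ZT6 in the retina. A probe set of Nr4a1 was called there and none of Nr4a2 was. That call was lost in 13 of 23 alternative settings, among them the fit without a filter in which Nr4a2 was tested. Each window runs from 250 bases before to 50 bases after the start of 1 RefSeq transcript. Both windows lie inside the gene spans above, not at their outer ends, and the motif and G and C values hold for these windows only. In the Nr4a1 window, chr7:134259888-134260187 on the plus strand, capitals mark TGCGTCA, a close relative of the AP-1 and CREB motifs that was picked after the sequence had been seen. In the Nr4a2 window, chr3:62104838-62105137 on the minus strand, capitals mark CGTCA, the core of the cyclic AMP response element, read on the opposite strand as TGACG.

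Nr4a1: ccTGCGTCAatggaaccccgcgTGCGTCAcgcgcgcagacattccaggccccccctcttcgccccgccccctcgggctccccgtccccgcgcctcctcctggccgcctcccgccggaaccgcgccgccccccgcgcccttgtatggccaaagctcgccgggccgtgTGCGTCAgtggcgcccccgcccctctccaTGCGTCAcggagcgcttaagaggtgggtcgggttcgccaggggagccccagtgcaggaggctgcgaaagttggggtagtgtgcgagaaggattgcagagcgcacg

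Nr4a2: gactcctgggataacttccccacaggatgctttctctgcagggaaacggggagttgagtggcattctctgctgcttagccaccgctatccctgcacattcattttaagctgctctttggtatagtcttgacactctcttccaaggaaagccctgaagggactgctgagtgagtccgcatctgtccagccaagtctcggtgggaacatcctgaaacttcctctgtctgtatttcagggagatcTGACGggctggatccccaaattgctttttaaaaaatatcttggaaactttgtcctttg

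TGCGTCA occurred 4 times in the Nr4a1 window, beginning at its bases 3, 23, 167 and 196, and each copy contains the core CGTCA. The search covered both strands of all 33469 RefSeq promoter windows of the same length. TGCGTCA was present in 1.9% of them and CGTCA in 21.2%, while 79 windows (0.236%) held CGTCA at least 4 times. The Nr4a2 window held CGTCA at 1 place, beginning at its base 243. The full element TGACGTCA (1.83% of windows), the AP-1 motif TGANTCA (7.33%), the NGFI-B element AAAGGTCA (1.43%) and the Egr motif GCGTGGGCG (0.544%) matched neither window. The Nr4a1 window was also richer in G and C, at 72.3%, against 48.7% in the Nr4a2 window. These matches describe letters in a window and say nothing of which factor was bound.

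Retina CT12 array 1 differed most from its kind: its correlation with the remaining 11 retina arrays (Spearman, median) was 0.837, against 0.944 to 0.962 for those arrays. Mean log2 levels of the 5 rod genes on the array were 11.94 on CT12 array 1 and 15.46 to 16.31 on the other 11. The 6 ganglion cell genes averaged 9.36 there, against at least 12.49 elsewhere. The 11 lens genes averaged 17.22 there and 17.12 on CT12 array 2, and were low on 2 other arrays, at 11.32 on CT6 array 3 and 11.63 on ZT6 array 2. Pineal identity was checked with genes of melatonin synthesis: Asmt, the last enzyme of the pathway, measured 11357 to 14977 on pineal arrays and 68.8 to 689 on retina arrays. Tph1, the first enzyme, measured 18774 to 27405 on pineal arrays and 13.7 to 247 on retina arrays. Aanat, an enzyme between them, measured 432 to 20036 on pineal arrays and 111 to 525 on retina arrays, so its ranges overlapped. Without retina CT12 array 1, limma tested 5 listed pineal genes between the tissues and called 4 higher in pineal, with 80.2% of all genes called. The fifth, Drd4, was called lower in pineal, by -0.82 ± 0.29 log2 units (limma adjusted p = 0.01817). The source names of the 4 pineal arrays say retina, so titles and the levels of Asmt and Tph1 go against them. The pineal array titled ZT12 also carries 6 hours in its description, and it was placed by its title. The 6 listed pineal genes averaged 14.22 log2 units on it, against 14.36 on the CT12, 13.33 on the ZT6 and 13.08 on the CT6 pineal array. The arrays numbered 3 give their source as brain and the other retina arrays as eye.

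Nr4a1, also known as Nur77 or NGFI-B, was the only gene of the family whose probe sets passed the filter on low values in the retina, and it stood higher at hour 12 than at hour 6 under ZT. Its leading probe set, U17254_g_at, the one with the highest retina mean of the gene, had deposited intensities of 4922, 4868 and 5303 on the ZT12 retina arrays, against 964, 1156 and 883 on the ZT6 retina arrays. The other probe set, U17254_at, had 2596, 3246 and 2973 on the ZT12 retina arrays, against 996, 1107 and 1138 on the ZT6 retina arrays. All 3 ZT12 arrays stood above all 3 ZT6 arrays with both probe sets, and the arrays of a group lay close together.

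Under CT the leading probe set U17254_g_at measured 212, 2946 and 4782 on the CT12 retina arrays 1, 2 and 3, against 1521, 1294 and 1041 on the CT6 retina arrays. U17254_at measured 969.6, 2015 and 2473 on the CT12 retina arrays, against 1224, 1175 and 1456 on the CT6 retina arrays. CT12 arrays 2 and 3 stood above every CT6 array with both probe sets, as 14.0% of tested probe sets did, and CT12 array 1 lay below every CT6 array with both. At hour 6 the CT and ZT arrays lay near each other: U17254_at was higher on each CT6 array than on each ZT6 array by a narrow margin, a separation shown by 7.09% of tested probe sets, and U17254_g_at overlapped.

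**Figure D1:**
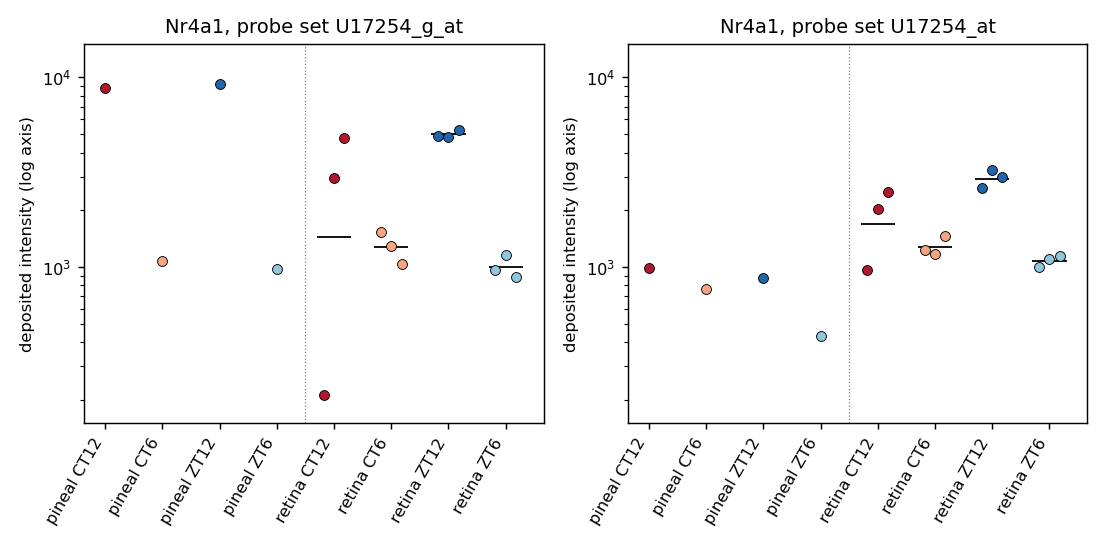
Deposited intensity of the Nr4a1 probe sets U17254_g_at (left) and U17254_at (right) on each of 16 arrays, on a log axis; points are arrays and bars are means of 3 log2 values. The ZT12 retina arrays sit between 4868 and 5303 with U17254_g_at, above the ZT6 retina arrays, and the CT12 retina arrays spread between 212 and 4782.

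These differences were tested with limma on quantile-normalised log2 values of the 12 retina arrays, in 1 fit of 4 groups over 5244 probe sets. U17254_at was 2.73-fold higher at ZT12 than at ZT6, with a 95% interval of 1.87 to 3.97-fold and a limma adjusted p of 0.04595. U17254_g_at was 5.03-fold higher, with an interval of 1.39 to 18.3-fold, and its limma adjusted p of 0.4246 missed the threshold of 0.05. In this comparison 0.286% of all tested probe sets were called, and 1 of the 2 Nr4a1 probe sets was. Higher deposited intensities without overlap, which both Nr4a1 probe sets had, occurred in 9.84% of tested probe sets. The U17254_at difference was 1.37 to 1.51 log2 units when each retina array was left out in turn. Leaving out a CT array could move it only through the normalisation. The call of U17254_at was lost in 10 of those 12 refits, with limma adjusted p values of 0.05867 to 0.3153. It stayed without CT12 array 1 and without CT12 array 3.

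CT12 array 1 set much of the error of the leading probe set, because the fit pools the spread of all 4 groups. Without that array the ZT12 minus ZT6 difference of U17254_g_at was 2.33 ± 0.19 log2 units (SE) with a limma adjusted p of 0.0002726, against 2.33 ± 0.84 with it. U17254_at gave 1.45 ± 0.14 (limma adjusted p = 0.000792) without the array and 1.45 ± 0.25 with it. In that refit 1.51% of tested probe sets were called. Fitted on the ZT12 and ZT6 arrays alone, where CT12 array 1 plays no part, U17254_g_at differed by 2.36 ± 0.13 (limma adjusted p = 0.000556), with 1.66% of probe sets called. The difference uses only ZT12 and ZT6 arrays, so leaving out a CT12 array could move it only through the normalisation. What changed was its error.

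The CT comparison depended on the same array. The CT12 minus CT6 difference of U17254_g_at was 0.26 ± 0.84 log2 units with all arrays (limma adjusted p = 0.8391), where 0.0381% of probe sets were called and neither Nr4a1 probe set was. Without CT12 array 1 it was 1.59 ± 0.21, or 3.02-fold higher at CT12, with a limma adjusted p of 0.02851, in a refit that called 0.133% of probe sets. U17254_at differed by 0.48 ± 0.25 with all arrays (limma adjusted p = 0.2111) and by 0.79 ± 0.16 without CT12 array 1 (limma adjusted p = 0.07972). Without CT12 array 2 the U17254_g_at difference was -0.23, and without CT12 array 3 it was -0.57, both far from the threshold. The direction of the CT difference of U17254_g_at thus turned with which CT12 array was left out, and 2 arrays against 3 carry the higher value.

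Over both regimes, hour 12 exceeded hour 6 by 0.96 ± 0.17 log2 units for U17254_at, a 1.95-fold difference (limma adjusted p = 0.0628), in a comparison that called 0.21% of probe sets. An exact two-sided permutation test of 6 against 6 retina arrays gave p = 0.008658 for this probe set, unadjusted. U17254_g_at exceeded by 1.30 ± 0.59 (limma adjusted p = 0.2863), with an exact permutation p of 0.1255. Without CT12 array 1 the differences were 1.12 ± 0.11 (limma adjusted p = 0.0005993) for U17254_at and 1.96 ± 0.14 (limma adjusted p = 0.0001535) for U17254_g_at, in a refit that called 1.3% of probe sets. On those 11 arrays every hour 12 value lay above every hour 6 value for both Nr4a1 probe sets, as it did, in the same direction, for 0.801% of tested probe sets. Without CT12 array 3 the U17254_at difference was 0.85 (limma adjusted p = 0.03491), with 3.39% of probe sets called.

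The regimes were compared at each hour. CT6 and ZT6 differed by 0.27 ± 0.25 for U17254_at and 0.39 ± 0.84 for U17254_g_at, both with a limma adjusted p of 1; 0 probe sets were called there, and 266 had an unadjusted limma p under 0.05. In deposited intensity CT12 lay below ZT12 on every array with both probe sets, which 16.5% of tested probe sets also did. On the normalised scale of the fit U17254_g_at overlapped, with 12.26 log2 units on CT12 array 3 and 12.20 on ZT12 array 2. The CT12 minus ZT12 differences were -0.70 ± 0.25 (limma adjusted p = 0.1414) for U17254_at and -1.68 ± 0.84 (limma adjusted p = 0.218) for U17254_g_at, with 0.61% of probe sets called. Without CT12 array 1 they were -0.39 and -0.35, neither called. Without CT12 array 3 both passed, at -0.93 (limma adjusted p = 0.03062) and -2.53 (limma adjusted p = 0.04872), in a refit that called 20.4% of probe sets. Averaged over both hours, CT minus ZT was -0.22 ± 0.17 and -0.65 ± 0.59 for U17254_at and U17254_g_at (limma adjusted p = 0.5475 and 0.5896), where limma called 0 probe sets and 621 had an unadjusted p under 0.05.

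Whether the hour effect itself differed between regimes was tested as the difference of the 2 hour effects. The CT effect was smaller than the ZT effect by 0.97 ± 0.35 log2 units for U17254_at, with a 95% interval of the CT minus ZT value from -1.74 to -0.20 and a limma adjusted p of 0.2472. For U17254_g_at the value was -2.07 ± 1.19 (95% interval -4.70 to 0.56, limma adjusted p = 0.3791). Without CT12 array 1 these were -0.66 (limma adjusted p = 0.1628) and -0.74 (limma adjusted p = 0.2316). Neither probe set passed, where 0.0191% of all probe sets did. The unadjusted interval of U17254_at held only smaller effects under CT, and that of U17254_g_at held smaller and larger ones.

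**Figure D2:**
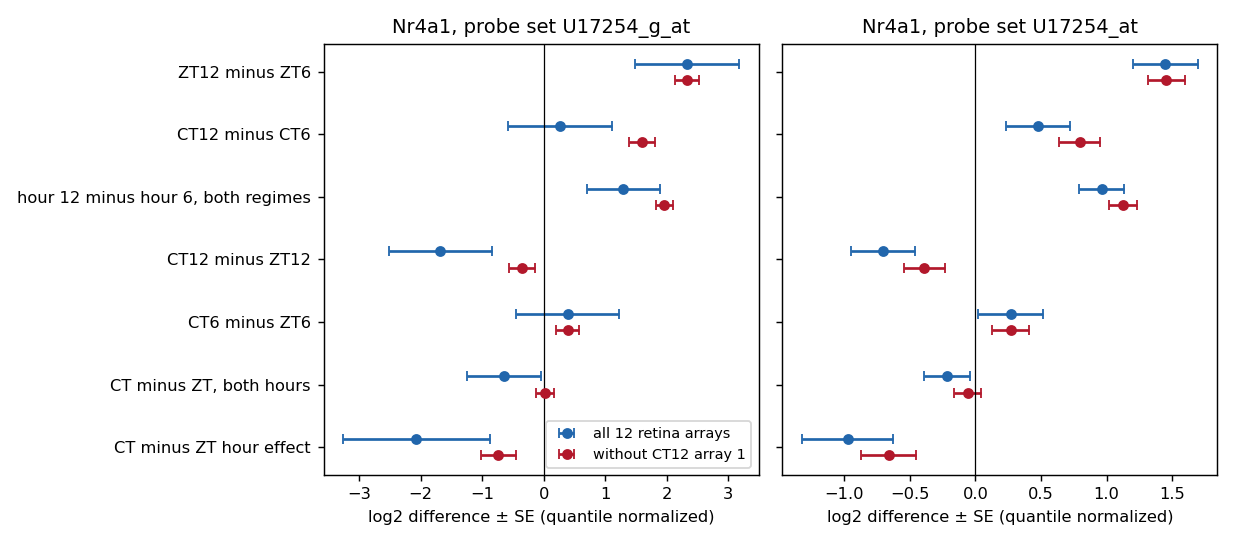
limma differences with standard errors in log2 units for the Nr4a1 probe sets U17254_g_at (left) and U17254_at (right), in the 7 retina comparisons, with all 12 retina arrays and without CT12 array 1. The ZT12 minus ZT6 point of U17254_g_at stays at 2.33 while its error narrows to 0.19, and its CT12 minus CT6 point stands at 1.59 without that array and at 0.26 with it.

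Lens genes were present in these retina dissections, and limma called none of them with the hour. All 11 had a positive hour 12 minus hour 6 difference in both regimes. At CT12 against CT6 the median was 2.64 log2 units. There 4 of the 11 had an unadjusted limma p under 0.05, as did 1438 of 5244 tested probe sets. At ZT12 against ZT6 the median was 1.26, and 0 had such a p, against 452 of 5244 probe sets. Mean log2 levels of the list were 15.74 to 17.22 on the CT12 arrays, against 11.32 to 15.51 on the CT6 arrays. Under ZT they were 14.54 to 16.39 on the ZT12 arrays, against 11.63 to 15.11 on the ZT6 arrays. The low end at hour 6 was 1 array in each regime: the other ZT6 arrays, at 15.08 and 15.11, lay within the ZT12 range, and the other CT6 arrays, at 15.12 and 15.51, lay just below the CT12 range. No lens gene was at 0, and at most 1 of the 11 lay below the filter limit on any retina array. The 5 rod genes averaged 15.99 to 16.13 on the ZT12 arrays, against 15.89 to 16.31 on the ZT6 arrays, so rod levels overlapped in the comparison where U17254_at was called. On CT12 array 1, where both Nr4a1 probe sets were low, rod, ganglion cell and Muller glia genes were also low. The part of lens tissue or of low levels of retinal cell genes in the Nr4a1 values was not tested. In whole tissue, fewer cells of a type and less RNA per cell cannot be told apart.

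The pair of Nr4a1 probe sets followed each other across the 12 retina arrays, with a Pearson correlation of 0.862 between log2 values, and of 0.956 over the 11 without CT12 array 1. They share the transcript and the arrays, so this describes probes rather than replicates. Ranked by Spearman correlation with U17254_g_at over the 12 retina arrays among 3172 other genes, the nearest were Wdr31 (0.951), Dusp1 (0.944), Abhd14b (0.930), Plekha8 (0.916) and Slc4a7 (0.902). Dusp1 encodes a phosphatase that switches off MAP kinases and is itself an immediate early gene. Egr1 reached 0.839 and Fos 0.629. By Pearson correlation the first 5 were Wdr31, Junb, Drd4, Fhip2a and Plekha8. By Spearman correlation without CT12 array 1 they were Wdr31 (0.936), Ppp1r15a (0.927), Dusp1 (0.927), Abhd14b (0.918) and Arsb (0.911). Over all 12 arrays Ppp1r15a stood at 0.4825 and Arsb at 0.469. These orders describe arrays that share 4 groups, and they changed in part when the outlying array was left out.

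Egr1 and Fos were the other immediate early genes called with the hour in the fit of all retina arrays. Of 46 listed genes other than the Nr4a family, 31 were on the array and 25 passed the filter. At ZT12 against ZT6, 2 of the 25 were called higher and 0 lower, with 0.189% of all genes called; the median difference was 0.06 over the list and -0.04 over all genes. The 2 were transcription factors. Egr1 was higher at ZT12 by 5.68 ± 0.69 log2 units (limma adjusted p = 0.01089) and Fos by 1.89 ± 0.18 (limma adjusted p = 0.002829). Junb, a partner of Fos in AP-1, differed by 1.35 ± 0.41 (limma adjusted p = 0.3102) and was called, at 1.35, in the refit without CT12 array 1 (limma adjusted p = 0.02497). Crem, a cyclic AMP-responsive factor, differed by 0.29 ± 0.21 (limma adjusted p = 0.8085).

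At CT12 against CT6, limma called 0 of the 25 immediate early genes and 0.0315% of all genes. There 7 of the 25 had an unadjusted limma p under 0.05, as did 1438 of all 5244 tested probe sets. Egr1 differed by 1.97 (limma adjusted p = 0.1434) and Fos by 0.61 (limma adjusted p = 0.1261). Over both regimes Egr1 (3.82, limma adjusted p = 0.01275) and Fos (1.25, limma adjusted p = 0.005381) were higher at hour 12. They were the 2 of the 25 called there, with 0.221% of all genes called. Fos was also lower at CT12 than at ZT12, by -1.24 (limma adjusted p = 0.02448). It was the 1 of the 25 called in that comparison, with 0.504% of all genes called. The U17254_at difference at ZT12 against ZT6, 1.45, lay below those of Fos and Egr1 and that of U17254_g_at, 2.33, between them.

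In the pineal gland the leading Nr4a1 probe set was also much higher at hour 12. U17254_g_at measured 8772 on the CT12 pineal array and 1076 on the CT6 pineal array, and it measured 9202 on the ZT12 array and 981 on the ZT6 array. Both hour 12 pineal arrays lay above all 12 retina arrays, and in deposited intensity both hour 6 pineal arrays lay within the range of the hour 6 retina arrays. As a rank, U17254_g_at stood at percentile 90.4 of the CT12 pineal array and 64.05 of the CT6 array, and at percentile 90.6 of the ZT12 array and 61.5 of the ZT6 array. The difference between hours was 8.05-fold under CT and 9.25-fold under ZT, on the scale of log2 of the deposited intensity plus 16. With 1 array per condition there was no replicate check within a regime.

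The other Nr4a1 probe set showed less of this. U17254_at measured 988 on the CT12 pineal array, against 762 on the CT6 pineal array, and 873 on the ZT12 array, against 432 on the ZT6 array. Its differences were 1.29-fold under CT and 1.98-fold under ZT, short of 2-fold in both. The 2 probe sets of the same gene thus gave different sizes in the pineal gland, and U17254_at lay at percentiles 43.7 to 63.5 of its arrays. A level at least 2-fold higher at hour 12 under both CT and ZT was found for 1.53% of the 5244 probe sets compared, and among the 7 Nr4a probe sets for U17254_g_at and for X86003_at of Nr4a3.

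A fit over all 16 arrays, chosen after the values were seen, took the CT and ZT pineal arrays of an hour as a pair of samples. Its error came mostly from the spread of the retina arrays, so its p-values do not measure replication within the pineal gland. It put the pineal hour effect of U17254_g_at at 2.65 ± 1.09 log2 units, with a limma adjusted p of 0.3694 and 1.56% of probe sets called. Without retina CT12 array 1 the effect was 2.65 ± 0.30 (limma adjusted p = 0.0002563), with 4.96% called. The pineal minus retina difference of the hour effect was 1.28 ± 1.25 (95% interval -1.44 to 3.99, limma adjusted p = 0.7635), and 0.55 ± 0.35 (limma adjusted p = 0.4913) without that array. These 2 tests called 0.629% and 3.05% of probe sets, and a tissue difference in the hour effect was not called for U17254_g_at. If the array titled ZT12 belonged to hour 6, as its description has it, 9202 and 981 would both be ZT6 values, far apart. The CT pair of 8772 and 1076 would then be the pineal comparison that remains.

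**Figure D3:**
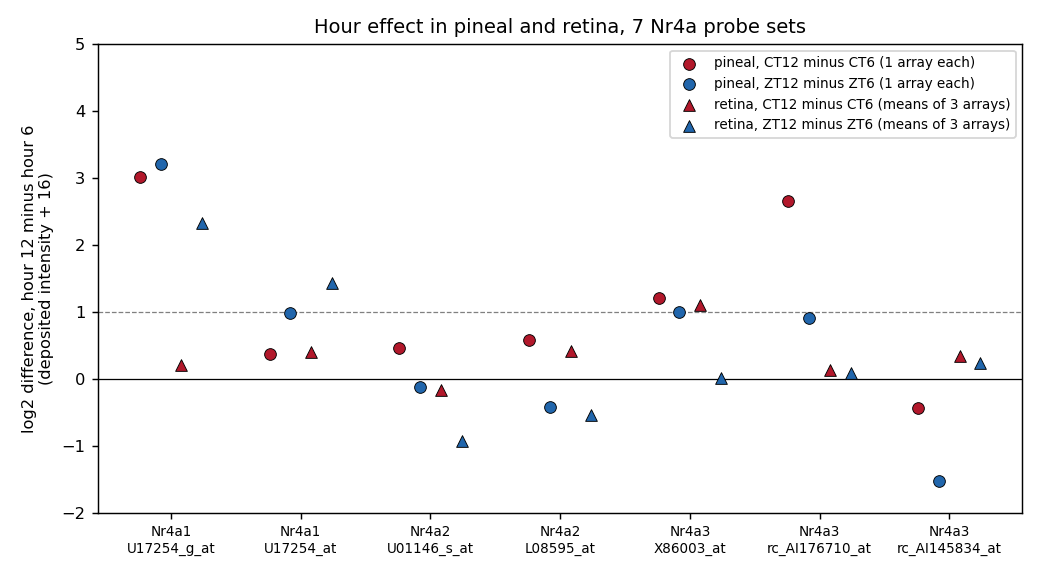
Log2 difference of deposited intensity plus 16, hour 12 minus hour 6, for the 7 Nr4a probe sets; circles are pineal (1 array each) and triangles are retina (means of 3 arrays), red for CT and blue for ZT, with the dashed line at a 2-fold higher level. U17254_g_at of Nr4a1 stands at 3.01 and 3.21 in the pineal gland, and X86003_at of Nr4a3 lies on or above the dashed line in both regimes there.

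Nr4a2, or Nurr1, is best known for its part in forming and keeping midbrain dopamine neurons. Its leading probe set, U01146_s_at, measured 1502, 1085, 1404 and 1532 on the CT12, CT6, ZT12 and ZT6 pineal arrays. On the retina arrays it measured 146, 663 and 567 at CT12, 364, 475 and 469.9 at CT6, 497, 91.1 and 507 at ZT12, and 443, 511 and 819 at ZT6. Every pineal array stood above every retina array, and within the retina the 4 groups overlapped. The 2 lowest values, 146 and 91.1, came from CT12 array 1 and ZT12 array 2.

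U01146_s_at passed the filter in the tissue comparison because of its pineal level; its retina mean of 8.73 log2 units lay below the limit of the retina fit, 8.88. The test was therefore also made on all 8740 probe sets without a filter, where pineal exceeded retina by 2.13 ± 0.41 log2 units, or 4.39-fold (95% interval 2.38 to 8.09), with a limma adjusted p of 0.000436. With the filter the limma adjusted p was 0.0002508. A call between the tissues was common: limma called 61.1% of probe sets without the filter and 75.8% with it, 39.4% as higher in pineal. Separation of all pineal arrays above all retina arrays occurred in 21.8% of tested probe sets, and in 1344 of all 8740 without the filter. An exact two-sided permutation test of 4 against 12 arrays gave 0.001099, the smallest p that this design can give. As a rank, U01146_s_at stood between percentiles 64.2 and 70.7 on pineal arrays and between 14.5 and 50.55 on retina arrays.

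The second Nr4a2 probe set, L08595_at, measured 586, 387, 233 and 318 on the CT12, CT6, ZT12 and ZT6 pineal arrays, and 144 to 371 on the 12 retina arrays, so the tissues overlapped. It did not pass the filter; without a filter, pineal exceeded retina by 0.97 ± 0.26 log2 units (limma adjusted p = 0.005367), in the comparison that called 61.1%. That comparison called 3018 of 8740 probe sets higher in pineal. Both Nr4a2 probe sets thus gave a higher mean in pineal, of unlike size.

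Neither Nr4a2 probe set was called in any of the 7 retina comparisons, which for them were run without the filter. Over Nr4a2 and Nr4a3 together these were 35 tests of 5 probe sets, of which 0 were called and 0 had an unadjusted limma p under 0.05. Over the array, 413 to 1722 of 8740 probe sets had such a p, depending on the comparison. The 7 comparisons share the same retina arrays, so these tests are not independent. Among all 8740 probe sets, limma without the filter called 0.0686% at ZT12 against ZT6, 0.0343% at CT12 against ZT12, 0.0915% for the hour over both regimes, 0.0114% for the difference of hour effects and none in the other 3. The largest difference of U01146_s_at was -0.84 ± 0.65 log2 units at ZT12 against ZT6 (95% interval -2.28 to 0.61, limma adjusted p = 0.8883). For L08595_at the same comparison gave -0.44 ± 0.37 (95% interval -1.26 to 0.38, limma adjusted p = 0.9038). In the pineal gland, hour 12 minus hour 6 was 0.46 under CT and -0.12 under ZT for U01146_s_at. It was 0.58 under CT and -0.42 under ZT for L08595_at, so the sign turned between regimes with both probe sets.

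**Figure D4:**
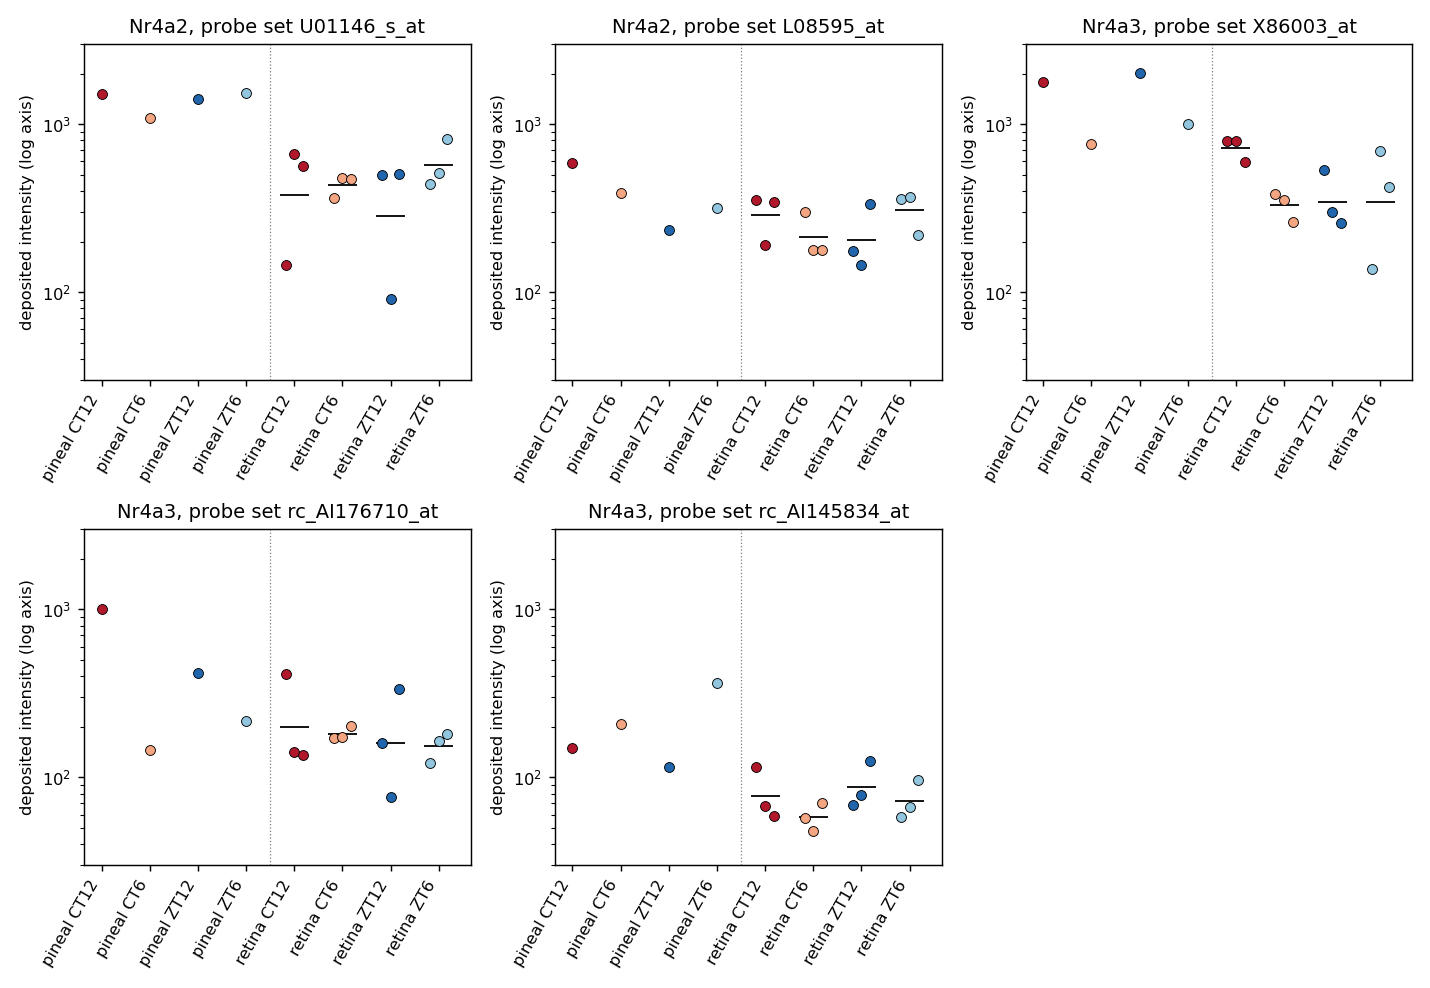
Deposited intensity of the Nr4a2 and Nr4a3 probe sets on each of 16 arrays, on a log axis, with points for arrays and bars for means of 3 log2 values. All 4 pineal values of U01146_s_at, 1085 to 1532, lie above all 12 retina values, and X86003_at is highest on the 2 hour 12 pineal arrays, at 1778 and 2016.

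Nr4a3, or NOR-1, shares its DNA-binding domain closely with the other members of the family. Its leading probe set, X86003_at, measured 1778 on the CT12 pineal array, against 764 on the CT6 pineal array, and 2016 on the ZT12 array, against 998 on the ZT6 array. Hour 12 was higher in both regimes, by 2.30-fold under CT and 2.00-fold under ZT. With all 16 arrays quantile-normalised together the ZT difference was 0.95 log2 units, just short of 2-fold. The added fit gave a pineal hour effect of 1.04 ± 0.58 (95% interval -0.23 to 2.30, limma adjusted p = 0.6665), and 1.04 ± 0.56 without CT12 array 1 (limma adjusted p = 0.3897), so the pineal difference was not called.

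In the retina X86003_at measured 790.4, 796 and 597 on the CT12 arrays, against 386, 351 and 261 on the CT6 arrays. Under ZT it measured 535, 301 and 258 at ZT12, against 138, 688 and 421 at ZT6. In deposited intensity the CT12 arrays stood above all CT6 and all ZT12 arrays, and ZT12 and ZT6 overlapped. On the normalised scale CT12 still stood above CT6, but CT12 array 3, at 9.09 log2 units, lay below ZT12 array 1, at 9.18. CT12 array 1, low for Nr4a1, was level with CT12 array 2 here. Among all 8740 probe sets, 12.1% were higher on every CT12 array than on every CT6 array, and 13.1% than on every ZT12 array. Without the filter, CT12 exceeded CT6 by 1.04 ± 0.49 log2 units (95% interval -0.06 to 2.13, limma adjusted p = 0.2682) and ZT12 by 0.96 ± 0.49 (limma adjusted p = 0.3063). ZT12 minus ZT6 was 0.10 ± 0.49 (limma adjusted p = 0.9925), and the difference of the 2 hour effects was 0.94 ± 0.70 (limma adjusted p = 0.5564). No retina comparison called X86003_at.

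X86003_at also passed the filter through its pineal arrays, since its retina mean of 8.76 log2 units lay under the retina limit. Without a filter its pineal level exceeded the retina level by 2.02 ± 0.33 log2 units, or 4.06-fold (95% interval 2.48 to 6.63), with a limma adjusted p of 0.0001054 and an exact permutation p of 0.001099. With the filter the limma adjusted p was 5.413e-05. On the deposited scale the CT6 pineal array, at 764, lay below 2 of the 3 CT12 retina arrays. As a rank within the array, all 4 pineal arrays (percentiles 57.5 to 74.8) stood above all 12 retina arrays (percentiles 18.9 to 53.8). The share of probe sets so separated by rank was not computed. In deposited intensity 1344 of all 8740 probe sets were higher on every pineal array than on every retina array, and X86003_at was not.

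The other Nr4a3 probe sets did not pass the filter of either fit. The probe set rc_AI176710_at measured 1006, 146, 418 and 216 on the CT12, CT6, ZT12 and ZT6 pineal arrays, and 76.6 to 410.0 on the retina arrays. Its pineal hour difference was 2.65 log2 units under CT and 0.91 under ZT, the same direction as X86003_at. The probe set rc_AI145834_at measured 150.2, 208, 116 and 366 on the CT12, CT6, ZT12 and ZT6 pineal arrays, and 47.9 to 125 on the retina arrays. Its pineal hour difference ran the other way, at -0.43 under CT and -1.53 under ZT, and its mean over the pineal arrays did not pass the pineal filter. Without a filter, pineal exceeded retina by 1.40 ± 0.43 log2 units (limma adjusted p = 0.01131) for rc_AI176710_at and by 1.59 ± 0.27 (limma adjusted p = 0.0001574) for rc_AI145834_at, in the comparison that called 61.1%. All 3 Nr4a3 probe sets were therefore called higher in pineal than in retina, and they disagreed on the hour. Without the filter, 3018 of 8740 probe sets were called higher in pineal. The median difference over those 8740 was 0.22 log2 units, against 0.09 with the filter.

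Between the tissues the Nr4a1 probe sets had opposite signs. U17254_at was lower in pineal than in retina, by -0.65 ± 0.19 log2 units (limma adjusted p = 0.007611), and on the deposited scale 3 of the 4 pineal arrays lay below every retina array and the fourth below all but CT12 array 1. On the normalised scale of the fit 1 pineal array, ZT6 at 9.11 log2 units, lay below the retina arrays, and the other 3, at 10.01 to 10.40, lay within their range, which began at 9.83. The call was lost without the ZT12 pineal array, at -0.45 (limma adjusted p = 0.06327), and an exact permutation test gave p = 0.1088. U17254_g_at was 0.97 ± 0.58 higher in pineal (limma adjusted p = 0.1422), and 0.62 ± 0.16 higher without retina CT12 array 1 (limma adjusted p = 0.002704, with 80.9% called). No direction between tissues can be given for the gene.

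The retinoid X receptors, with which Nr4a1 and Nr4a2 can pair, were all measured. None of Rxra, Rxrb and Rxrg was called in the retina comparisons; at ZT12 against ZT6 they differed by -0.41, -0.27 and -0.38 log2 units, with limma adjusted p values of 0.9549, 0.838 and 0.7576. Between tissues Rxrg was higher in pineal by 2.68 ± 0.16 log2 units (limma adjusted p = 2.269e-09) and Rxrb lower by -0.61 ± 0.17 (limma adjusted p = 0.005254). Rxra differed by 0.00 ± 0.50 (limma adjusted p = 0.9934). Among all genes 74.1% were called between the tissues.

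Genes reported elsewhere as Nr4a targets gave 10 tested of 18 listed in the retina, and 0 were called at ZT12 against ZT6, with 1 at an unadjusted limma p under 0.05 and a median difference of 0.18, against -0.04 over all genes. Between tissues 9 were tested and 3 called, with 74.1% of all genes called. Th, the rate-limiting enzyme of dopamine synthesis, was lower in pineal by -0.97 ± 0.22 log2 units (limma adjusted p = 0.0009213), and Pfkm, a glycolytic enzyme, by -0.55 ± 0.19 (limma adjusted p = 0.0183). Spp1, the secreted protein osteopontin, was higher by 0.50 ± 0.19 (limma adjusted p = 0.03165). Of 8 tested genes of dopamine cells, 0 were called by limma at ZT12 against ZT6, and 0 had an unadjusted p under 0.05. In that comparison 452 of 5244 tested probe sets had such a p. Drd4, a dopamine receptor gene, was called in the refit without CT12 array 1, at 1.07 ± 0.18 (limma adjusted p = 0.02231).

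Other nuclear receptors were not called with the hour in the fit of all retina arrays. Of 41 listed, 29 were on the array and 18 passed the filter. Of these, 0 were called by limma in any of the 7 retina comparisons, and 0 to 6 had an unadjusted p under 0.05. The 6 were at CT12 against CT6, where 1438 of 5244 tested probe sets had such a p. Rorb, a retinal orphan receptor that acts in photoreceptor development, was called at ZT12 against ZT6 in the refit without CT12 array 1 (1.22 ± 0.23, limma adjusted p = 0.03835). Between tissues 3 of the 18 were called higher in pineal and 8 lower, where 74.1% of all genes were called, with a median of -0.05 over the list and 0.25 over all genes. The 4 with the smallest p were all lower in pineal. They were the retinoic acid receptor gene Rarb (-2.68), the liver X receptor gene Nr1h2 (-1.54), the clock repressor gene Nr1d1 (-1.65) and the fatty acid sensor gene Ppara (-2.34), with limma adjusted p values of 2.245e-08, 6.017e-08, 8.481e-08 and 2.382e-06.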

How the data were processed

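The deposited values are linear intensities, 1 per probe set and array, as the values of the authors' series matrix show; how they were summarised, background-corrected and scaled is not given in the sources used here. The trimmed mean, with 2% of probe sets left out at each end, was 2503 to 2506 on all arrays. Probe sets were named through GEO's platform annotation: 7006 of 8740 carry 1 symbol, 308 several and 1426 none; 59 controls were left out. Retina arrays were quantile normalized, as were all 16 arrays for the tissue comparison, and pineal arrays alone were used as deposited. Values were log2 of intensity plus 16. Probe sets with a mean at or above the 40th percentile were tested (5244); the limit was 8.88 log2 units for retina and 8.83 for the tissue fit. Tests were two-sided, by limma 3.58.1 in R 4.3.3 (lmFit, eBayes), with Benjamini-Hochberg adjustment at 0.05 over all probe sets tested. One retina fit of 4 groups had 8 residual degrees of freedom, and the tissue fit (tissue plus condition) had 11. The fit of tissue by hour was added after values were seen. Errors are SE; intervals are 95%. Within the pineal gland that added fit was the one test made, with an error drawn mostly from the retina arrays. Exact permutation tests used scipy 1.17.1. The procedure was tested on simulated data.

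All probe sets of the family are named; likeness was ranked on the brightest probe set per gene, and list genes were named when called, up to 4 per list and comparison, beside Egr1, Fos, Junb and Crem. Drd4 and Rorb were named after their values were seen. The members and lists were chosen with earlier results of these data known. Promoters are from RefSeq; 2 of the 3 genes matched, and the Nr4a3 promoter is not used here. Pairing of the retina arrays by title number was neither shown nor excluded, and the main fits left it out. The number of arrays limits the precision. Alternatives were no filter or one at the 60th percentile, array quality weights, a trended robust prior, offsets of 1 and 64, a common median, the deposited scale, a replicate block, the compared arrays alone, and arrays left out.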

Additional observations from a re-analysis of the deposited data

Results flagged for a closer look

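Retina CT12 array 1 stood apart for the leading Nr4a1 probe set. Among the 6 hour 12 retina arrays, U17254_g_at had 7.935 log2 units there, an intensity of 212, while the next lowest array had 11.58. The gap was 0.829 of the whole range of the 6 arrays, above the limit of Dixon's test. This was 1 such gap among 21 groups tested, and chance alone gives about 1 in 20. The same array had the lowest rod, ganglion cell, amacrine cell and Muller glia levels of the 12 retina arrays. It had the highest immune level, 10.93 log2 units, and the highest blood level, 12.91, beside 12.90 on CT6 array 3. Lens genes stood at 17.22 log2 units against 17.12 on CT12 array 2. The part of these tissue differences in the low Nr4a1 value was not tested.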

How the results depend on the processing

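For U17254_at at ZT12 against ZT6 the call was lost with values as deposited (1.43 log2 units), without a filter (1.45) and without the arrays numbered 3 (1.50); leaving out 1 array gave 1.37 to 1.51. For U17254_g_at it was gained with array quality weights (2.37) and on the compared arrays alone (2.36), with 2.25 to 2.44 on leaving out 1 array. Array quality weights, which called up to 2568 probe sets in a comparison, also gave calls at CT12 against CT6 (0.70 for U17254_at, 1.22 for U17254_g_at), CT12 against ZT12 (-0.51, -0.69), hour 12 against hour 6 (1.07, 1.79) and for the difference of hour effects (-0.73, -1.15). Without the arrays numbered 3, CT12 minus CT6 of U17254_g_at was -0.70. Leaving out 1 array gave -0.57 to 1.59 for that difference, -0.93 to -0.39 and -2.53 to -0.35 for CT12 against ZT12, 0.85 to 1.12 and 0.88 to 1.96 for the hour over both regimes, and -1.07 to 0.020 for U17254_g_at in CT against ZT, the positive value without CT12 array 1. A filter at the 60th percentile called the hour effect of U17254_at (0.96).

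Between tissues U17254_at was not called with tissue as the only term or by the exact test (-0.65 in both), and ranged from -0.79 to -0.45 on leaving out 1 array; U17254_g_at was called with a common median (1.31) and ranged from 0.47 to 1.21. U01146_s_at and X86003_at kept their tissue call and direction under each of 14 alternatives, at 1.71 to 2.27 and 1.61 to 2.14. Pineal hour differences of U17254_g_at were 2.76 (ZT) and 2.54 (CT) with all 16 arrays quantile normalized, and the added fit gave 2.65, called without CT12 array 1. With title numbers fitted as a replicate block, U17254_at at ZT12 against ZT6 stayed called (1.45, limma adjusted p = 0.04268). Correlations of deviations between the 18 pairs of same-numbered arrays ran from -0.413 to 0.414, and 5 exceeded 0.1. Such a mixed range can neither show nor exclude pairing by number. The block called 11 probe sets at ZT12 against ZT6, 8 at CT12 against ZT12 and 7 for the hour. Without it these counts were 15, 32 and 11. Over all alternatives the calls numbered 0 to 279 at ZT12 against ZT6 (15 in the main setting), 0 to 2524 at CT12 against CT6 (2), 0 to 3 at CT6 against ZT6 (0), 0 to 2568 at CT12 against ZT12 (32), 0 to 1432 for the hour (11), 0 to 1031 for the regime (0), 1 to 1370 for the difference of hour effects (1) and 2765 to 5338 between tissues (3977). At CT6 against ZT6, 266 probe sets had an unadjusted limma p under 0.05. The cause of these changes was not tested.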
